A study of Mus musculus with 9 samples.

Results

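Mouse embryonic stem cells that lack β-catenin were compared with and without a fusion protein that restores a link between cadherin and α-catenin. Of the 9 arrays in the series, 3 held cells titled β-catenin null and 3 held cells titled β-catenin null Eα. The remaining 3, the flox arrays, held control cells with 1 deleted and 1 floxed β-catenin allele and are given here only as a reference level. All 6 arrays compared came from cells with both β-catenin alleles deleted. The null Eα cells also carried, as a stable transgene product, E-cadherin fused to α-catenin. The lines had a mixed S129S6 and C57BL/6 background and grew on gelatin in 15% fetal calf serum with 1000 U/ml of leukaemia inhibitory factor (LIF). They were collected before confluence, and the growth protocol names no feeder layer. The labels call the arrays of a group biological replicates. They do not say whether these were separate clones or cultures of 1 clone, nor which promoter drove the fusion, so the p-values measure the spread between these arrays. The comparison covered 19938 genes, each read by a feature assigned to 1 gene symbol, out of 35556 features. A gene with several features was represented by the brightest of them, by its mean over the 9 arrays. Levels and differences are in log2 units, in which a difference of 1 is a 2-fold change.

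β-Catenin has 2 jobs in these cells. In the adherens junction it joins the tail of E-cadherin to α-catenin, which binds the actin cytoskeleton, and in the nucleus it acts with TCF/LEF factors on genes of the Wnt pathway. A fusion of E-cadherin with α-catenin supplies the first link and has no part that binds TCF/LEF factors. The comparison therefore asks which transcripts of the null cells differ once that link is present while β-catenin stays absent. Naive embryonic stem cells, the culture counterpart of the epiblast before implantation, are kept by LIF and by factors such as Nanog, Esrrb and Klf4, and primed cells resemble the epiblast after implantation.

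Null Eα cells differed from null cells in many genes. With limma over all 9 arrays, 6330 of 19938 genes (31.7%) passed an adjusted p (Benjamini-Hochberg) of 0.05. Of these, 2721 (13.6% of all genes) were higher in null Eα cells and 3609 (18.1%) were lower. The call with a difference of at least 2-fold was met by 339 higher genes (1.7%) and 624 lower genes (3.13%). An 8-fold or larger rise was seen in 38 called genes (0.191%) and a fall of that size in 5 (0.0251%). Every null Eα array lay above every null array in 4395 genes (22%) and below in 4191 genes (21%). The median difference over all genes was 0.05. Higher genes made up 43.0% of the calls as deposited. The share was 71.6% after each chromosome of each array was centred on the median of its brighter genes. It was 33.9% after each array was centred on its own median. The balance of directions therefore depends on the centring.

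**Figure D1:**
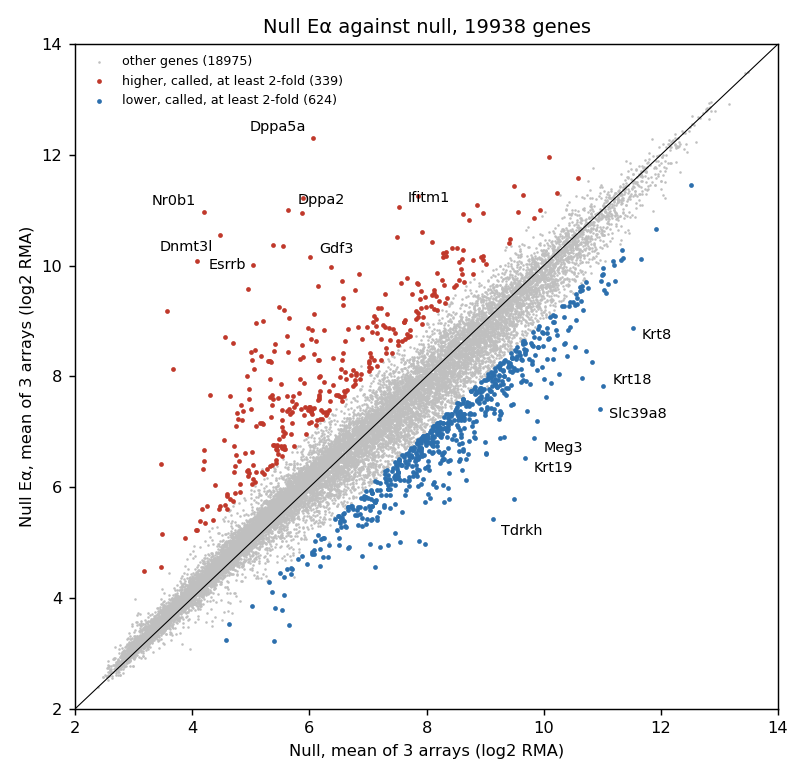
Mean level of each of the 19938 genes on the 3 null arrays (horizontal axis, log2 RMA) and on the 3 null Eα arrays (vertical axis, log2 RMA), with the line of equal levels. Red points are the 339 genes called higher and blue points the 624 called lower by at least 2-fold. The rises reach farther from the line than the falls, with Nr0b1 near 4 on the null axis and near 11 on the null Eα axis.

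The third null Eα array lay nearer to the null arrays than the other two. Its Pearson correlation with the null arrays across features was 0.978 to 0.980, against 0.964 to 0.970 for null Eα replicates 1 and 2. Differences are therefore also given without it, and a value in square brackets after a difference is the one without replicate 3. Without null Eα replicate 3, 7859 genes were called (39.4%), 3726 higher (18.7%) and 4133 lower (20.7%). At least 2-fold were 398 higher (2%) and 860 lower genes (4.31%), and 47 higher (0.236%) and 17 lower genes (0.0853%) reached 8-fold. Both analyses called 5996 genes in the same direction, which is 94.7% of the calls with all arrays and 76.3% of those without replicate 3, and 0 genes in opposite directions. The spread of levels differed between arrays, with an interquartile range of 3.41 to 3.46 on the null arrays, 3.21 and 3.24 on null Eα replicates 1 and 2, and 3.37 on replicate 3. Dim genes were accordingly a little higher and bright genes a little lower in null Eα cells. The median difference was 0.13 in the tenth of genes with mean levels of 5.21 to 5.80 and -0.11 in the tenth with levels of 7.86 to 8.60. Markers of embryonic stem cells were present on every array, with a mean level of the 8 markers that ran from 8.77 to 9.10 in null and from 10.3 to 10.5 in null Eα cells. In bulk RNA, fewer cells of a type and less RNA per cell cannot be told apart.

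The deleted gene and the genes of the fusion moved little. Ctnnb1, which encodes β-catenin, read 10.55, 10.50 and 10.47 on the null arrays and 10.23, 10.13 and 10.32 on the null Eα arrays. The groups did not overlap, although both carry the deletion. It fell by 0.28 ± 0.07 [-0.33] (limma's standard error, adjusted p = 0.0156). The call was lost without null Eα replicate 2 (adjusted p = 0.0545) and after quantile normalization. Whether its feature lies inside the deleted exons was not tested, so its signal is no check of the deletion. Cdh1, which encodes E-cadherin, read 11.12, 11.14 and 11.24 in null cells and 11.15, 11.08 and 10.99 in null Eα cells, and the groups overlapped (-0.10 ± 0.07 [-0.05], adjusted p = 0.344). Ctnna1, which encodes α-catenin, read 11.03, 11.09 and 11.24 against 11.10, 11.07 and 11.05 (-0.05 ± 0.07 [-0.04], adjusted p = 0.638). Ctnna1 was called lower once chromosome shifts were removed (-0.25, adjusted p = 0.0366), and its difference was 0.01 without null replicate 3. That removal uses the median level of a chromosome's brighter genes on each array, relative to all brighter genes. It does not use the median differences given for each chromosome below. Whether the removal itself made the Ctnna1 call was not tested. No array of the fusion cells stood above the null arrays in either gene, and whether these features read the fusion transcript was not tested. Jup, which encodes plakoglobin, the relative of β-catenin that can take its place in junctions, read 9.42, 9.17 and 9.61 in null and 8.88, 8.85 and 8.85 in null Eα cells. The fall of Jup was 0.54 ± 0.10 [-0.53] (adjusted p = 0.00306), but the gene lies on chromosome 11, whose genes were lower as a group, and the call was lost once chromosome shifts were removed. An exact two-sided permutation test of 3 arrays against 3 cannot go below 0.1, and it gave 0.1 for Ctnnb1 and Jup, 0.3 for Cdh1 and 0.8 for Ctnna1.

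Genes of the naive pluripotency network made up 5 of the 12 largest rises. Of 30 measured genes of that list, 28 were higher and 0 lower, against 13.6% of all genes higher, and their median difference was 2.23, against 0.05 over all genes. The 2 not called were L1td1 (-0.11 [-0.11]) and Zfp352 (-0.07 [0.02]). Without replicate 3 the count was again 28 and the median 2.39. By array, the median distance from the null mean was 2.27, 2.50 and 2.04 in null Eα replicates 1, 2 and 3.

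Nr0b1, which encodes the nuclear receptor Dax1 of naive stem cells, was the largest of all named rises. It read 3.88, 4.24 and 4.46 on the null arrays and 11.11, 11.40 and 10.40 on the null Eα arrays, with a flox mean of 11.46. The null arrays were all low and the null Eα arrays were all high, with no overlap. The difference was 6.78 ± 0.23 (adjusted p = 4.40e-08) and 7.06 without replicate 3. The null levels lay under the first quartile of their own arrays (4.52 to 4.55), so for Nr0b1 the difference is a lower bound, and the same holds for Zfp980, Zfp640 and Zfp600 below. Dppa5a, which encodes a KH-domain protein of early embryos, read 6.16, 6.39 and 5.65 in null and 12.32, 12.23 and 12.34 in null Eα cells. Replicate 3 was the highest of the 3 null Eα arrays in this gene. The rise was 6.23 ± 0.15 (adjusted p = 1.90e-08; 6.21 without replicate 3). Esrrb, an orphan receptor that activates many naive genes, read 5.30, 4.70 and 5.11 against 10.09, 10.23 and 9.71, and rose by 4.98 ± 0.16 (adjusted p = 3.72e-08; 5.12 without replicate 3). The 2 groups were separated by more than 4 log2 units on every pair of arrays.

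The sequences around the start sites of Nr0b1 and Esrrb are shown because these regulators had some of the largest rises. They were taken from RefSeq on the build GRCm38.p6, 250 bases before to 50 bases after the start, 5′ to 3′ on the strand of the gene. Nr0b1 lies on the + strand at chrX:86191525-86191824 and Esrrb, the first of 2 listed starts, on the + strand at chr12:86360867-86361166. Capitals mark a match to the TATA box letters TATAAA on either strand.
Nr0b1: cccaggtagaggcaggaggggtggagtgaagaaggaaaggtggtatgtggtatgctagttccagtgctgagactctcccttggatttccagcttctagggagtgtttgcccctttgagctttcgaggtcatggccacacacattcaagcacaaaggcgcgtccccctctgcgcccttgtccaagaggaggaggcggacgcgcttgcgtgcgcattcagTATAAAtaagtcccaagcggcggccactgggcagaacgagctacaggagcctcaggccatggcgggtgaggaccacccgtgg
Esrrb: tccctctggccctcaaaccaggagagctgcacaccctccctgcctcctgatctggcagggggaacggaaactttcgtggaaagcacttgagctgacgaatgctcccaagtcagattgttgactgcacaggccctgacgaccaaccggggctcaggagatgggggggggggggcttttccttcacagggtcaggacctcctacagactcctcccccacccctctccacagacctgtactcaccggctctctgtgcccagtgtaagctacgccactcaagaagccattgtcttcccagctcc
The Nr0b1 window holds 1 such match, which begins 32 bases before the start, and the Esrrb window holds none. The letters TATAAA or their complement occur in 13.62% of 32851 promoter windows of this length. The CpG content over that predicted from base composition was 0.55 for Nr0b1 and 0.27 for Esrrb, against a median of 0.38 over all windows.

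Other naive genes rose as well. Trh, a hormone precursor transcribed in naive cells, rose by 4.99 ± 0.22 [5.30], and Dppa2, a chromatin protein of early embryos, by 5.37 ± 0.32 [5.54]. Gdf3, a ligand of the Nodal family, rose by 4.14 ± 0.20 [4.43], from 6.16, 6.05 and 5.82 to 10.48, 10.40 and 9.58. Tfcp2l1, a transcription factor induced by LIF, rose by 3.48 ± 0.12 [3.56], Zfp42 (Rex1) by 2.92 ± 0.23 [3.14] and Pecam1, a surface protein of naive cells, by 2.62 ± 0.08 [2.64]. Nanog, a homeodomain factor of the pluripotency network, read 9.47, 9.20 and 9.79 in null and 11.39, 11.50 and 11.41 in null Eα cells (1.95 ± 0.12, adjusted p = 3.87e-06; 1.96 without replicate 3). In Nanog the 3 null Eα arrays lay close together and below the flox mean of 11.94. Klf4 rose by 1.77 ± 0.26 [1.89]. Gbx2 rose by 0.51 ± 0.11 [0.56], and Spic differed by 0.64 ± 0.19 [0.86] with overlapping groups. The Spic call (adjusted p = 0.0312) was lost without null replicate 2 or 3 or null Eα replicate 1 or 2.

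**Figure D2:**
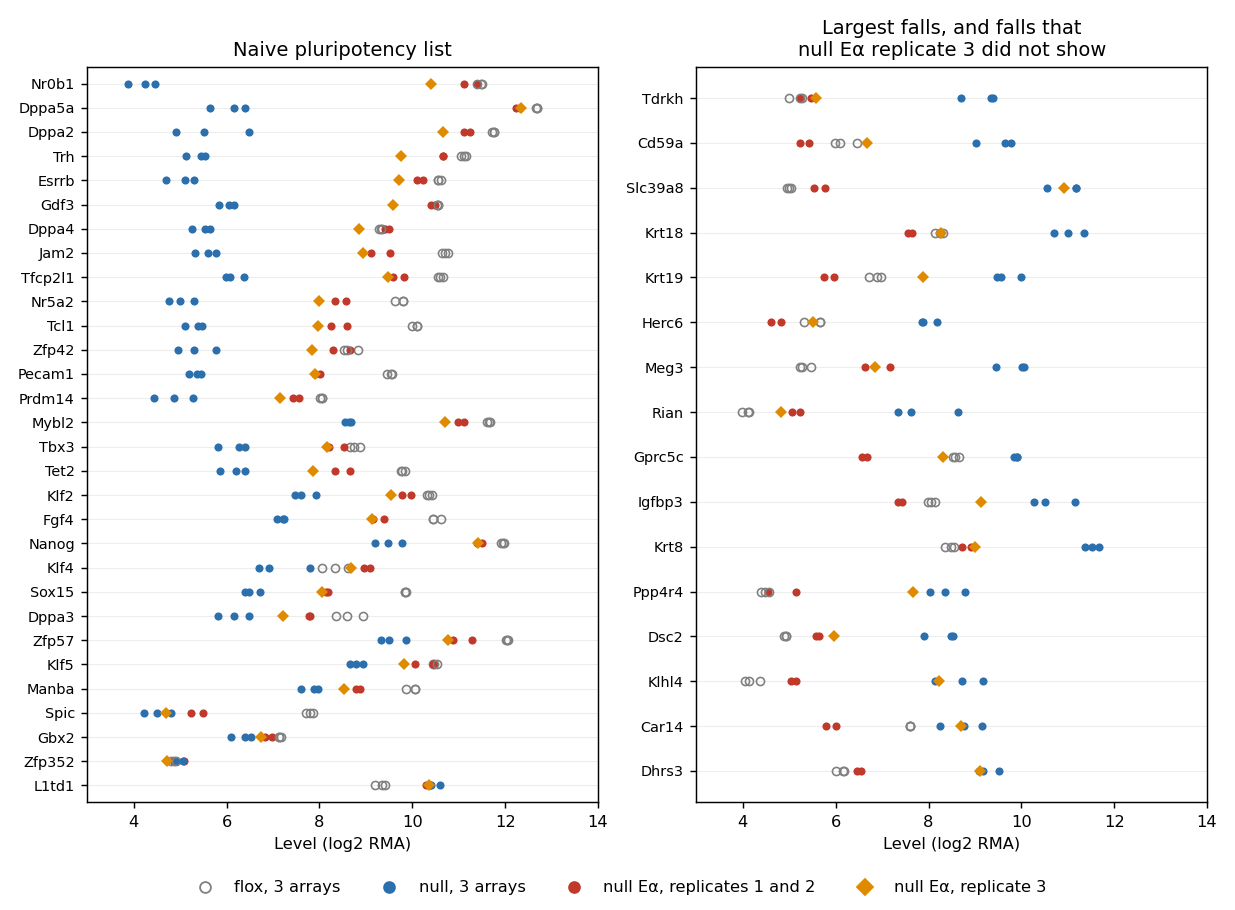
Level on each array (log2 RMA) of the 30 measured genes of the naive pluripotency list (left) and of the named falls with 4 genes in which null Eα replicate 3 stayed at the null level (right). Each row is a gene, open circles are the 3 flox arrays, blue the 3 null arrays, red null Eα replicates 1 and 2 and orange diamonds replicate 3. In the left panel replicate 3 lies to the right of every null array for 27 of the 30 genes, and for Slc39a8, Klhl4, Car14 and Dhrs3 on the right it lies among the null arrays.

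Factors that naive and primed cells share moved less. Of 14 measured genes of the core pluripotency list, 9 were higher and 1 lower, against 13.6% and 18.1% of all genes. The median was 0.35, and the counts were 9 and 2 without replicate 3. Over the alternatives the higher count ran from 6 to 11 and the median from 0.21 to 0.41. The count was 6 without null replicate 3 and also once chromosome shifts were removed. Sox2 rose by 1.08 ± 0.09 [1.10] and Sall4 by 0.71 ± 0.10 [0.74]. Pou5f1, which encodes Oct4, read 10.81, 10.82 and 10.75 in null and 11.35, 11.42 and 11.31 in null Eα cells, a rise of 0.57 ± 0.07 [0.59] (adjusted p = 1.54e-04). The groups were clearly apart, yet the step was small beside that of Nanog. Lin28a, an RNA-binding protein, was the 1 lower member (-0.30 ± 0.09 [-0.35], adjusted p = 0.026), and leaving out null replicate 1 or null Eα replicate 1 or 2 ended that call.

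Genes of the primed epiblast went in both directions, with 7 of 16 lower and 5 higher, against 18.1% and 13.6% of all genes. Their median was -0.13. Of the lower members, 6 were regulators or markers of the epiblast and early neural plate, namely Nes, Fgf5, Zic5, Zic2, Otx2 and Sox11. Fgf5, the growth factor that marks primed cells, read 10.13, 9.98 and 9.53 in null and 7.44, 6.91 and 9.97 in null Eα cells. Replicates 1 and 2 were low and replicate 3 was inside the null range. The difference was -1.77 ± 0.61 with all arrays (adjusted p = 0.0497, a call lost in 12 of 18 alternatives) and -2.70 without replicate 3 (adjusted p = 6.38e-06). Otx2, a homeodomain factor of the primed state, read 9.65, 10.36 and 10.18 against 8.52, 8.47 and 9.64, and fell by 1.18 ± 0.28 (-1.57 without replicate 3). Zic5 and Sox11 fell by 1.36 ± 0.31 [-1.84] and 1.01 ± 0.18 [-1.25]. The 5 higher members were led by Wnt8a at 0.63 [0.67], but none of the 5 was called without null replicate 2, null replicate 3 or null Eα replicate 1. The lower members numbered 4 without null replicate 1 or null Eα replicate 1 or 2.

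Germline genes rose as well. Of 25 measured germ cell and piRNA genes, 16 were higher and 0 lower, against 13.6% and 18.1% of all genes. Their median was 0.66, against 0.05 over all genes, and 20 were higher without replicate 3. The higher count was 13 without flox replicate 2 or null Eα replicate 1 or 2. With dim genes left out, 11 members remained and 9 of them were higher. Dnmt3l, the cofactor of the de novo DNA methyltransferases, read 4.59, 4.66 and 4.17 in null and 10.67, 10.77 and 10.24 in null Eα cells. It rose by 6.09 ± 0.16 [6.25] (adjusted p = 1.90e-08), and each null Eα array lay within 1 unit of the flox mean of 10.79. Tdrd12, a Tudor protein of the piRNA pathway, rose by 3.00 ± 0.17 [3.17], Ddx4 (Vasa), an RNA helicase of germ cells, by 2.65 ± 0.23 [2.96], Ddx43 by 2.04 ± 0.15 [2.19] and Kit, the receptor of stem cell factor, by 1.27 ± 0.10 [1.27]. Against this direction, Tdrkh, a Tudor protein that binds piRNA factors and was not on the list, was the largest named fall with all arrays. It read 8.69, 9.39 and 9.35 in null and 5.47, 5.22 and 5.58 in null Eα cells, near the flox mean of 5.16. The fall was 3.72 ± 0.18 (adjusted p = 5.03e-07; -3.79 without replicate 3).

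Among enzymes of DNA methylation and Polycomb complexes, 12 of 26 were higher and 5 lower, against 13.6% and 18.1% of all genes. The median was 0.19. Tet1 and Tet2, which oxidise methylated cytosine, rose by 2.00 ± 0.12 [2.07] and 2.13 ± 0.19 [2.34]. Jarid2, a partner of Polycomb repressive complex 2, rose by 0.98 ± 0.11 [1.10] and Cbx7, the reader subunit of complex 1 in stem cells, by 0.81 ± 0.07 [0.81]. Ezh2, the methyltransferase of complex 2, fell by 0.61 ± 0.07 [-0.63], but it lies on chromosome 6 and its call was lost after each chromosome was centred.

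The zinc finger genes of chromosome 4 Zfp980, Zfp991 and Zfp600, were among the 12 largest named rises, at 6.00 ± 0.25 [6.29], 4.79 ± 0.14 [4.95] and 4.45 ± 0.20 [4.61], with Zfp640 at 5.62 ± 0.15 [5.80]. Such genes have close copies nearby, and their features can share signal. Pla2g1b, a secreted phospholipase, rose by 5.34 ± 0.15 [5.48], and Rpp25, a subunit of the RNase P and MRP complexes, by 4.62 ± 0.23 [4.85].

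Of 9 measured genes on the list named simple epithelium keratins, 5 were lower and 1 higher, against 18.1% and 13.6% of all genes. The median was -0.22, and the counts were 4 and 2 without replicate 3. Krt8 and Krt18, which pair to form the intermediate filaments of simple epithelia, fell together. Krt8 read 11.52, 11.38 and 11.68 in null and 8.91, 8.72 and 8.996 in null Eα cells, with a flox mean of 8.46. It fell by 2.65 ± 0.10 (adjusted p = 1.42e-07; -2.71 without replicate 3), to 15.9% of the null signal. Krt18 read 10.70, 10.99 and 11.36 against 7.56, 7.64 and 8.28, and fell by 3.19 ± 0.20 (adjusted p = 3.17e-06; -3.42 without replicate 3). Both pairs of groups were far apart, and replicate 3 was the highest null Eα array in each gene. Krt19, a type I keratin of ducts and embryonic epithelia, read 9.56, 9.48 and 9.99 against 5.97, 5.74 and 7.88. Replicate 3 stood midway, and the fall was 3.15 ± 0.45 with all arrays and 3.82 without replicate 3. Krt17, the higher member of the list, rose from 5.71, 5.71 and 5.23 to 6.99, 7.12 and 6.68 (1.38 ± 0.15 [1.51]).

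The start sites of Krt8 and Krt18 are shown because these adjacent genes fell together. Both windows are from RefSeq on GRCm38.p6, 5′ to 3′ on the strand of the gene, Krt8 on the - strand at chr15:102004293-102004592 and Krt18 on the + strand at chr15:102027966-102028265. Capitals mark matches to TATAAA on either strand.
Krt8: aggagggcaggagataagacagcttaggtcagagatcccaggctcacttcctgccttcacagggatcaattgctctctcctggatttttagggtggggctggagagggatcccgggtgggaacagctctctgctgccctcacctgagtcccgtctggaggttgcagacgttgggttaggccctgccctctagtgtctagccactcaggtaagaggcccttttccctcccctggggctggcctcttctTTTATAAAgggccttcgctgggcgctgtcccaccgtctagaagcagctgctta
Krt18: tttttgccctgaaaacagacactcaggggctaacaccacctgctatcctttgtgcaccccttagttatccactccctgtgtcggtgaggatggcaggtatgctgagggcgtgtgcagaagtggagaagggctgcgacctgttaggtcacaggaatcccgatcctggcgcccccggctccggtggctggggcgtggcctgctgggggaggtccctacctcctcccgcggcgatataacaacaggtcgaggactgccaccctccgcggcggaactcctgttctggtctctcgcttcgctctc
The Krt8 window holds 2 overlapping matches, 1 on each strand, at its annotated start, and the Krt18 window holds none. Neither keratin window nor those of Nr0b1 and Esrrb held the GC box GGGCGG, the octamer ATGCAAAT, the Esrrb-type element TCAAGGTCA, the AP-1 element TGANTCA or the STAT element TTCCNGGAA on either strand. These letters occur in 35.66%, 1.74%, 0.42%, 7.81% and 1.15% of all windows.

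Other parts of the epithelial junctions were lower too. Of 25 measured desmosome and tight junction genes, 14 were lower and 4 higher, against 18.1% and 13.6% of all genes, with a median of -0.67. The 4 higher members numbered 2 without null replicate 2 or null Eα replicate 1. Dsc2, a desmosomal cadherin, read 8.48, 7.90 and 8.53 in null and 5.57, 5.64 and 5.96 in null Eα cells, and fell by 2.58 ± 0.16 [-2.69] (adjusted p = 3.20e-06). Dsp, which anchors keratin filaments to desmosomes, fell by 1.95 ± 0.23 [-2.29] and Ocln, the tight junction protein occludin, by 1.64 ± 0.16 [-1.77]. Cgn, a scaffold of tight junctions, fell by 1.04 ± 0.12 [-1.11], while the claudin gene Cldn4 rose by 1.34 ± 0.13 [1.44]. Dsg2 differed by -0.06 [-0.03] (adjusted p = 0.653). The median distance of the list from the null mean was -0.65 and -0.83 in null Eα replicates 1 and 2 and -0.30 in replicate 3. In the adherens junction list 9 of 24 genes were lower and 0 higher, with a median of -0.19 (10 and 1 without replicate 3). Vcl, which encodes vinculin, the partner of α-catenin under tension, read 10.52, 10.59 and 10.81 against 9.26, 8.95 and 9.90 and fell by 1.27 ± 0.19 [-1.54]. Cdh2, which encodes N-cadherin, fell by 1.02 ± 0.14 [-1.005] and Epcam, an epithelial adhesion molecule, by 0.38 ± 0.07 [-0.40].

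**Figure D3:**
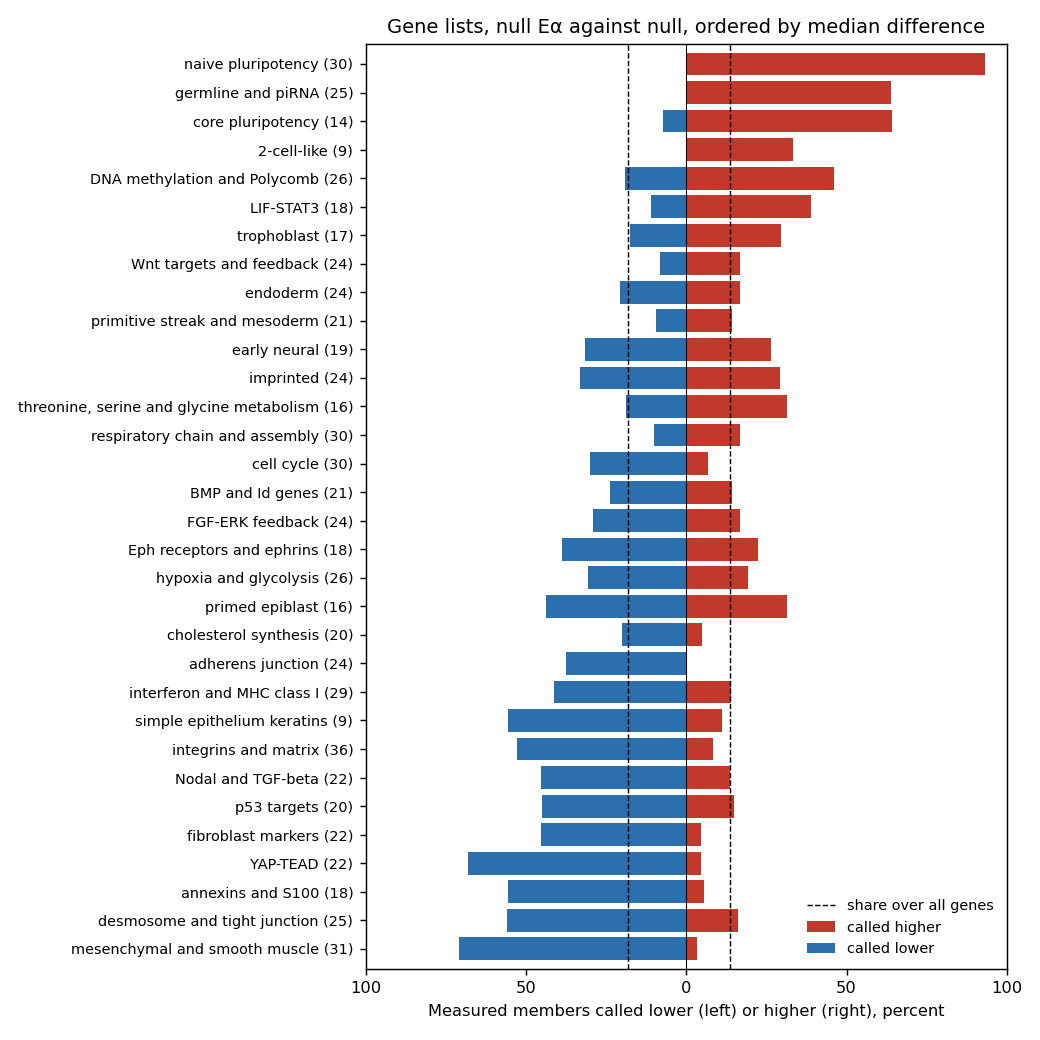
Share of the measured members of each of the 32 gene lists that were called higher (right, red) or lower (left, blue) in null Eα than in null cells, in percent, with the number measured in brackets. Lists are ordered by their median difference, and dashed lines mark the shares over all genes, 13.6% higher and 18.1% lower. The naive pluripotency list stands at the top with 28 of 30 higher and the mesenchymal and smooth muscle list at the bottom with 22 of 31 lower.

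Among the gene lists, mesenchymal and contractile genes had the lowest median with all arrays. Without replicate 3 the lowest was the desmosome and tight junction list (-0.83), and with dim genes left out the keratin list (-1.43). Of 31 measured mesenchymal genes, 22 were lower and 1 higher, against 18.1% and 13.6% of all genes. Their median was -0.71 (21 and 0 with a median of -0.70 without replicate 3). Here replicate 3 was as low as the others, with medians of -0.55, -0.80 and -0.77 in null Eα replicates 1, 2 and 3. Tagln, an actin-binding protein of smooth muscle, read 10.02, 9.78 and 10.36 in null and 8.60, 8.03 and 8.33 in null Eα cells, and fell by 1.73 ± 0.16 [-1.74] (adjusted p = 4.52e-05). The null Eα arrays were all lower, but remained above the flox mean of 5.32. Cald1 (caldesmon) fell by 1.69 ± 0.14 [-1.71], Acta2 (smooth muscle actin) by 1.26 ± 0.16 [-1.21] and Tpm2 (a tropomyosin) by 0.98 ± 0.11 [-1.02]. Acta2 was far above its flox mean of 5.91 in both groups, at 12.22, 11.60 and 11.94 in null and 10.92, 10.50 and 10.54 in null Eα cells. Tnc, the matrix glycoprotein tenascin C, read 10.45, 11.15 and 10.88 against 10.46, 10.03 and 9.85. Its groups overlapped, and the call (-0.71 ± 0.19 [-0.58], adjusted p = 0.0155) was lost without null replicate 2, null replicate 3 or null Eα replicate 2.

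Markers of fibroblasts, a cell type that stem cell cultures can hold as feeders, were lower in 10 of 22 genes and higher in 1. The shares over all genes were 18.1% and 13.6%. The median was -0.39, and the counts were 7 and 0 without replicate 3. The lower count was also 7 without null replicate 2, after quantile normalization or without null Eα replicate 2. Null replicate 2 stood apart in some of these genes. Lum, which encodes the matrix proteoglycan lumican, read 3.59, 6.67 and 3.57 in null and 4.02, 3.57 and 3.73 in null Eα cells. Null replicate 2 stood above all other arrays, and Dcn (decorin) was also highest there, at 10.45 against 8.08 and 8.54. Neither gene passed the test with all arrays, and Dcn passed it without null replicate 1. Collagen I was lower on all 3 null Eα arrays, with Col1a2 falling by 1.17 ± 0.12 [-1.17] and Col1a1 by 1.11 ± 0.14 [-1.13]. Postn (periostin) fell by 1.78 ± 0.24 [-1.94]. The mean level of 11 defining fibroblast markers ran from 7.98 to 8.79 in null cells, 7.41 to 7.73 in null Eα cells and 5.33 to 5.48 in flox cells, and 5 of the 11 were lower. The part of such cells in the mesenchymal and matrix results was not tested. Without null replicate 2, 20 mesenchymal genes were lower and 1 higher.

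Cell-matrix genes and annexins were lower in large part. Of 36 integrin and basement membrane genes 19 were lower and 3 higher, against 18.1% and 13.6% of all genes, with a median of -0.29. The lower count was 11 without null Eα replicate 2 and 18 without replicate 3, and the higher count 5 without replicate 3. Itga3, an integrin subunit that binds laminin, read 10.11, 9.67 and 10.22 in null and 7.56, 7.48 and 8.81 in null Eα cells, and fell by 2.05 ± 0.30 (-2.48 without replicate 3). Itga5, a fibronectin receptor subunit, fell by 1.01 ± 0.13 [-1.03] and Sparc, a matrix-associated glycoprotein, by 1.20 ± 0.10 [-1.31]. Lama1, the laminin chain of embryonic basement membrane, rose by 1.46 ± 0.13 [1.60] and Itga9 by 0.92 ± 0.12 [1.07]. Fn1 (fibronectin) read 11.51, 11.17 and 11.51 against 11.56, 11.54 and 11.38 and was not called (0.09 ± 0.10 [0.15], adjusted p = 0.508). Of 18 annexin and S100 genes 10 were lower and 1 higher, with a median of -0.57. Of the list, 12 of the 18 genes and 7 of the 10 lower ones lie on chromosomes 3, 6, 11 or X. The median was -0.38 with 9 lower once chromosome shifts were removed and -0.22 with 7 lower and 3 higher once each chromosome was centred. Anxa1, a membrane-binding protein, read 11.35, 11.39 and 11.33 against 10.37, 10.16 and 9.86, and fell by 1.23 ± 0.11 [-1.09]. Replicate 3 was the lowest array in Anxa1.

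YAP and TEAD genes, which respond to cell contact and tension, were lower in 15 of 22 members and higher in 1. The shares over all genes were 18.1% and 13.6%. The median of the list was -0.52, and the counts were 19 and 1 without replicate 3. Ankrd1, a target of YAP, read 8.05, 8.53 and 8.50 in null and 7.45, 7.02 and 6.87 in null Eα cells and fell by 1.25 ± 0.17 [-1.13]. Ccn1, another target, fell by 1.25 ± 0.20 [-1.37], while its relative Ccn2 read 10.30, 10.18 and 10.71 against 10.23, 10.11 and 10.09 and did not pass (-0.25 ± 0.12 [-0.23], adjusted p = 0.134). Amot, a junctional protein that holds YAP, fell by 1.17 ± 0.13 [-1.33] and the kinase gene Lats2 by 0.69 ± 0.11 [-0.82]. Yap1 itself differed by -0.21 ± 0.08 [-0.27] (adjusted p = 0.0593) and was called in 6 of 18 alternatives, among them without replicate 3 (adjusted p = 0.0224). The list's median was -0.56 and -0.68 in null Eα replicates 1 and 2 and -0.31 in replicate 3.

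Both groups lack β-catenin, and the share of Wnt targets called higher was near that of all genes. Of 24 measured, 4 were higher and 2 lower, against 13.6% and 18.1% of all genes, with a median of 0.15. The lower count was 1 without null Eα replicate 2, the higher count was 2 without null replicate 2, and the counts were 9 and 1 once each chromosome was centred. Axin2, a feedback inhibitor commonly used as a readout of the pathway, read 6.51, 6.38 and 6.44 in null and 6.30, 6.63 and 6.38 in null Eα cells, with a flox mean of 7.76. The groups overlapped, and the difference was -0.01 ± 0.11 [0.02] (adjusted p = 0.961; 0.41 with adjusted p = 0.0173 once each chromosome was centred). Notum, a secreted Wnt deacylase, was the largest difference of the list, from 5.74, 5.38 and 5.25 to 7.02, 6.74 and 6.02 (1.14 ± 0.22; 1.42 without replicate 3). Msx1 rose by 0.40 ± 0.09 [0.44]. Myc fell by 0.55 ± 0.16 [-0.53] (adjusted p = 0.022), which no longer passed without null Eα replicate 2, on the 6 arrays alone and after quantile normalization.

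In the LIF and STAT3 pathway, 7 of 18 genes were higher and 2 lower, against 13.6% and 18.1% of all genes. The median was 0.18. Lifr, the LIF receptor, read 6.24, 5.94 and 6.07 in null and 8.54, 8.58 and 8.09 in null Eα cells, and rose by 2.32 ± 0.13 [2.48] (adjusted p = 1.77e-06). Jak2, a kinase of cytokine receptors, fell by 1.63 ± 0.19 [-1.85]. Stat3, the pathway's transcription factor, read 8.89, 8.89 and 8.90 against 8.89, 8.96 and 8.75 and was not called (-0.03 [0.03]; 0.39 and called once each chromosome was centred). Among ligands and receptors of Nodal and TGF-β signalling, 10 of 22 were lower and 3 higher, with a median of -0.30. The ligand genes Tgfb2 and Tgfb3 fell by 1.33 ± 0.19 [-1.49] and 0.95 ± 0.10 [-1.02]. The Nodal antagonists Lefty1 and Lefty2 went apart, at -0.70 ± 0.15 [-0.69] and 1.65 ± 0.27 [1.82]. In the FGF and ERK list, 4 of 24 were higher (16.7%) and 7 lower (29.2%), against 13.6% and 18.1% of all genes. The lower count was 3 or 4 without any 1 flox replicate, null replicate 1 or 2, or null Eα replicate 2. Fgf4, the main FGF of naive cells, rose by 2.06 ± 0.09 [2.10], and the feedback inhibitors Spry2 and Spry4 by 1.08 ± 0.12 [1.09] and 1.99 ± 0.27 [2.24]. Among the lower members, Dusp14 on chromosome 11 fell by 1.22 ± 0.15 [-1.27]. In the BMP and Id list 3 of 21 were higher (14.3%) and 5 lower (23.8%), against 13.6% and 18.1% of all genes. The lower count was 2 without null replicate 3 or null Eα replicate 2 and 3 without null Eα replicate 1. Id2 and Id4, inhibitors of helix-loop-helix factors, rose by 1.05 ± 0.11 [1.20] and 1.08 ± 0.12 [1.15], and the protease gene Bmp1 fell by 1.43 ± 0.08 [-1.43].

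Lists of differentiated lineages held both higher and lower genes. Of 24 endoderm genes 4 were higher and 5 lower, near the 13.6% and 18.1% of all genes (8 and 6 without replicate 3). The higher count was 2 without null replicate 1 or 3. Dab2, an endocytic adaptor of primitive endoderm, fell by 1.68 ± 0.20 [-1.94], and Gata6, a defining factor of that lineage, was not called (adjusted p = 0.987; 0.969 without replicate 3). Of 17 trophoblast genes 5 were higher and 3 lower (8 and 2 without replicate 3). Tfap2c, a factor shared by trophoblast and naive stem cells, read 6.71, 7.08 and 6.54 in null and 9.68, 9.60 and 9.38 in null Eα cells, and rose by 2.78 ± 0.13 [2.86]. Cdx2, which defines trophoblast, differed by 0.18 ± 0.10 [0.26] (adjusted p = 0.182; 0.0477 without replicate 3). Eomes, a T-box factor of trophoblast and primitive streak, rose by 1.07 ± 0.10 [0.97]. Of 19 early neural genes 5 were higher and 6 lower, the former 3 without null replicate 3 or null Eα replicate 2. Tubb3, a neuronal tubulin, rose by 0.95 ± 0.16 [1.13] and Sox1 by 0.44 ± 0.08 [0.49], while Nes (nestin) read 8.85, 8.62 and 8.96 against 6.45, 5.97 and 8.58. In Nes replicates 1 and 2 were low and replicate 3 lay just under the null arrays (-1.81 ± 0.51, adjusted p = 0.0223; -2.60 without replicate 3). That call was lost in 6 of 18 alternatives.

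Of 29 genes of interferon response and antigen presentation, 12 were lower and 4 higher, against 18.1% and 13.6% of all genes, with a median of -0.20. B2m, the light chain of MHC class I, read 10.90, 11.34 and 11.03 in null and 9.54, 9.44 and 10.02 in null Eα cells and fell by 1.42 ± 0.16 [-1.60] (adjusted p = 1.10e-04). Psmb10, an immunoproteasome subunit, fell by 1.32 ± 0.12 [-1.40] and Ifit2, an interferon-induced gene, fell by 1.56 ± 0.17 [-1.74]. Herc6, another gene of this response that was not on the list, fell by 3.00 ± 0.20 [-3.26]. The higher members were led by Ifitm1, a membrane protein also found in early embryos, which rose by 3.53 ± 0.19 [3.66] from 7.12, 7.98 and 7.47 to 11.23, 11.13 and 10.81. Cd59a, an inhibitor of complement, was the second-largest named fall with all arrays, from 9.03, 9.78 and 9.65 to 5.23, 5.44 and 6.67 (-3.71 ± 0.34; -4.15 without replicate 3). Targets of p53 were lower in 9 of 20 and higher in 3, among them Ccng2, which fell by 0.81 ± 0.10 [-0.84], and Tigar, which rose by 0.68 ± 0.11 [0.77].

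Imprinted genes went in both directions, with 7 of 24 higher and 8 lower, against 13.6% and 18.1% of all genes. The higher count was 4 without null replicate 3. The largest falls were 2 maternally expressed long RNAs of the Dlk1-Meg3 locus on chromosome 12. Meg3 read 10.02, 9.45 and 10.05 in null and 7.17, 6.64 and 6.85 in null Eα cells, and fell by 2.95 ± 0.17 (adjusted p = 2.09e-06; -2.94 without replicate 3). Rian read 8.64, 7.62 and 7.34 against 5.23, 5.05 and 4.83, and fell by 2.83 ± 0.27 [-2.73]. In both genes replicate 3 was as low as the others, and all null Eα arrays stayed above the flox means of 5.32 and 4.08. Of the paternally expressed genes of the locus, Dlk1 differed by 0.37 ± 0.10 [0.39] (adjusted p = 0.0154), a call lost without null replicate 1 or 3 or null Eα replicate 1, and Rtl1 by 0.09 [0.16] (adjusted p = 0.564). Elsewhere Igf2, a growth factor, fell by 1.51 ± 0.16 [-1.65] and Slc38a4, an amino acid transporter, rose by 1.07 ± 0.10 [1.06]. Peg10 read 5.55, 5.62 and 5.51 against 5.73, 5.90 and 5.48 (0.15 ± 0.10, adjusted p = 0.287; 0.26 and called without replicate 3), far under its flox mean of 11.36 in both groups.

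Long precursors from the Meg3 side of that locus carry many microRNAs, so the microRNA genes on chromosome 12 are shown with it. Of 47 measured there, 13 were lower and 2 higher, against 18.1% and 13.6% of all genes, with a median of -0.03 (12 and 1 without replicate 3). On the other chromosomes 2 of 253 were lower and 34 higher, with a median of 0.10 (9 and 50 without replicate 3). The share of higher genes there was near that of all genes, and the share of lower genes was far under it. Lower calls were rare among dim genes of any kind. They numbered 21 of 1994 genes with mean levels of 2.35 to 3.83 and 131 of 1993 with levels of 5.21 to 5.80. The 18.1% of all genes is therefore a poor yardstick for dim microRNA genes. Whether these features read precursor or mature RNA was not tested. The 4 that fell at least 2-fold were Mir329, Mir380, Mir487b and Mir539. Mir329 read 6.04, 5.95 and 6.14 in null and 4.92, 4.70 and 4.75 in null Eα cells (-1.26 ± 0.09 [-1.24], adjusted p = 6.53e-06). Mir380 differed by -1.32 ± 0.13 [-1.25], Mir487b by -1.26 ± 0.12 [-1.15] and Mir539 by -1.09 ± 0.14 [-0.999]. In null Eα cells Mir380 read 3.36, 3.27 and 3.12 and Mir539 read 3.74, 3.52 and 3.36. These levels lay under the first quartile of their own arrays (4.56 to 4.63), so both differences are only bounds. Mir487b lay near that quartile, at 4.40, 4.67 and 4.21. RefSeq lists 6 mature products of these genes, of which 1 per gene is shown 5′ to 3′ (build GRCm38.p6, all on the + strand) to show what these genes encode, with the seed, bases 2 to 8, in capitals. The miR-329-3p lies at chr12:109713541-109713562, miR-380-3p at chr12:109711842-109711863, miR-487b-5p at chr12:109727347-109727367 and miR-539-5p at chr12:109728136-109728157.
mmu-miR-329-3p: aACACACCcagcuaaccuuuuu
mmu-miR-380-3p: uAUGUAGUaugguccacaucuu
mmu-miR-487b-5p: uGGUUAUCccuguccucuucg
mmu-miR-539-5p: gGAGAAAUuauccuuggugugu
The 4 seeds shown differ from each other, and miR-329-5p and miR-380-5p are not shown. The seed of miR-329-3p is shared with 1 other mature mouse microRNA of the table, miR-362-3p.

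Null Eα replicate 3 followed the rises more closely than the falls. Among the 398 genes called at least 2-fold higher without it, its distance from the null mean was a median of 82.5% of that of replicates 1 and 2, and 18 genes (4.52%) lay under 50%. Among the 860 called at least 2-fold lower, the median was 56.1%, and 358 genes (41.6%) lay under 50%. For differences of at least 8-fold the medians were 89.3% of 47 higher and 38.9% of 17 lower genes. These genes were chosen on replicates 1 and 2, so the percentages are a description. Slc39a8, a zinc and manganese transporter, was the extreme case. It read 10.55, 11.17 and 11.17 in null cells and 5.78, 5.54 and 10.91 in null Eα cells. Replicates 1 and 2 lay near the flox mean of 4.99 and replicate 3 inside the null range, so the difference was -3.55 ± 1.12 [-5.31] (adjusted p = 0.0342, lost in 10 of 18 alternatives) with it and -5.31 (adjusted p = 7.38e-08) without. Klhl4, Fndc3c1, Car14, which encodes a carbonic anhydrase, and Dhrs3, which reduces retinal, had the same pattern. Without replicate 3, Cd59a, Krt19 and Slc39a8 fell further than Tdrkh. Klhl4 read 8.14, 9.17 and 8.73 against 5.15, 5.03 and 8.22, and Dhrs3 9.17, 9.08 and 9.53 against 6.47, 6.55 and 9.10. The opposite pattern, replicate 3 below the other null Eα arrays, was led by Cxcl5, a chemokine, at 8.88, 8.60 and 7.10, and Ereg, a ligand of the EGF receptor, at 8.07, 7.41 and 6.25. Neither was called with all arrays (adjusted p = 0.0795 and 0.138), and both were without replicate 3 (1.86 and 1.40). Nqo1, an oxidoreductase of the oxidative stress response, behaved alike (0.56 with all arrays, 0.86 and called without replicate 3).

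**Figure D4:**
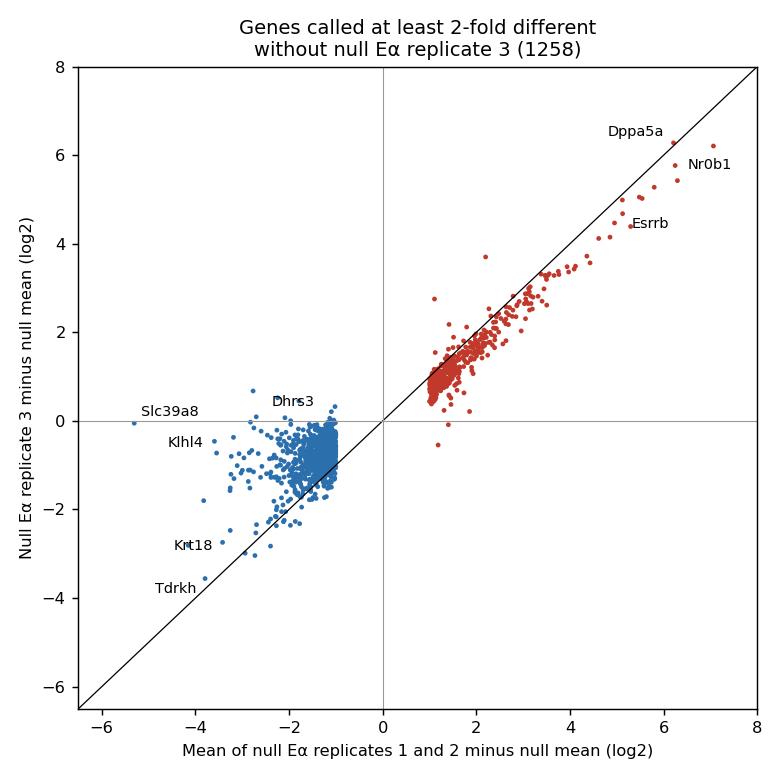
Distance from the null mean (log2) of null Eα replicates 1 and 2 together (horizontal axis) and of replicate 3 (vertical axis) for the 398 genes called at least 2-fold higher and the 860 called at least 2-fold lower without replicate 3, with the line of equal distance. Red genes were higher and blue genes lower in null Eα cells. The red points lie close to the line, while 358 of the 860 blue points lie less than 50% of the way and Slc39a8 lies near 0.

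Several chromosomes were lower as a whole in null Eα cells. Among the 9969 brighter genes the median difference was -0.08. It was -0.44 on chromosome 6, -0.35 on chromosome 11, -0.24 on chromosome 3 and -0.18 on the X, and between -0.11 and -0.004 on the other autosomes. On chromosome 11, 58.4% of the brighter genes were called lower, on chromosome 6 56.4%, on chromosome 3 45.8% and on the X 41.1%. On the other autosomes the share was 21.5% to 30.3%. Chromosome 11 alone held 542 of the genes called lower, which is 15.0% of them, and 1563 of the 19938 genes compared. The shift was present on each array, at -0.34, -0.39 and -0.34 on chromosome 11 and -0.41, -0.48 and -0.39 on chromosome 6 in null Eα replicates 1, 2 and 3. On chromosome 3 it was -0.26, -0.31 and -0.15. Named falls that lie on these chromosomes include Krt19, Gprc5c and Igfbp3 (11), Herc6 (6) and Tdrkh (3). Their calls held after chromosome shifts were removed. The number of chromosome copies was not measured, and its part in these results was not tested. With shifts in the median level of each chromosome removed, 3377 genes were higher and 3918 lower.

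**Figure D5:**
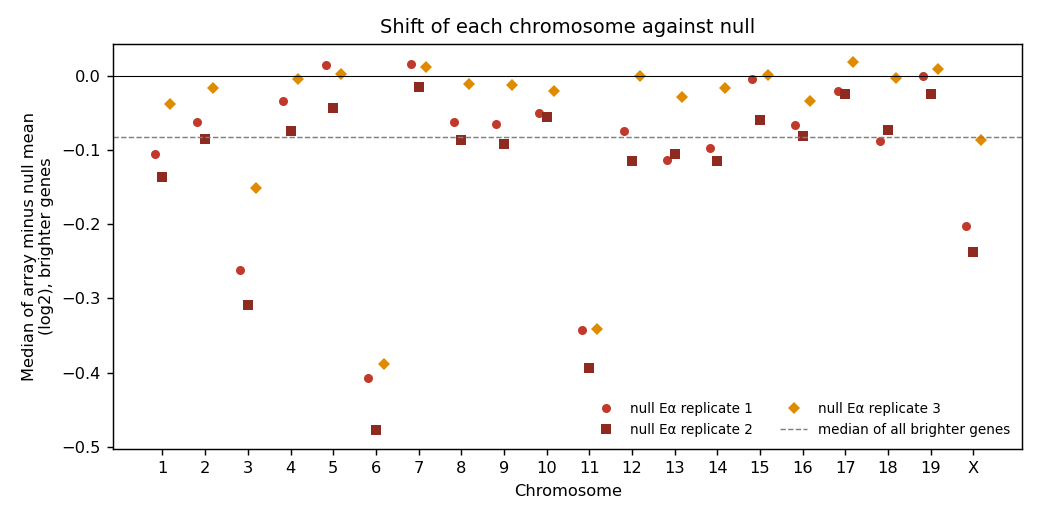
Median distance of each null Eα array from the null mean (log2) over the brighter genes of each chromosome with at least 50 such genes, by replicate. The dashed line is the median difference over all brighter genes, -0.08. Chromosomes 6 and 11 lie lowest on all 3 arrays and chromosomes 3 and X next.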

How the data were processed

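Total RNA of 9 cultures was labelled with the Affymetrix whole-transcript sense assay and read on 1 array each, per the labels' protocols. The authors deposited log2 values made with RMA, per the submitters' processing notes, whose version is not given in the sources used here. The deposited table was used as it stands. Whether the 9 arrays went through RMA together is not given in the sources used here, and their interquartile ranges ran from 3.21 to 3.84. The number of arrays limits the precision. Of 35556 features, 21789 were assigned to 1 gene symbol by the platform annotation, 1621 to several and 12146 were not listed there.

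Groups were taken from the titles. A mean per group was fitted to all 9 arrays with limma 3.58.1 (lmFit and eBayes, R 4.3.3), with Benjamini-Hochberg adjustment over 19938 genes and a threshold of 0.05. The fit was tested on simulated data. Tables and plots were made with Python 3.11.15 and matplotlib 3.10.9.

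Genes were named by rule: the 12 largest rises and falls that were called with and without null Eα replicate 3 and whose groups did not overlap, the 4 called members with the smallest p in each list, 16 genes always given, and the 5 genes each way that depended most on that replicate. Other named genes were chosen after their values were seen. The genes, lists and comparison were chosen with earlier results of these data known. Alternatives were each array left out in turn, the 6 arrays alone, quantile normalization, centring of arrays or chromosomes, removal of chromosome shifts (chosen after seeing the data), dim genes left out, a trended robust prior, the mean of a gene's features, and the replicate number as a block.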

Additional observations from a re-analysis of the deposited data

How the results depend on the processing

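Of 210 named genes, 147 stayed on the same side of the threshold in all 18 alternatives. Over all of these values 232 lost the call, 43 gained it and 2 reversed. The number of higher genes moved from 2721 to 6350 once each chromosome was centred on its brighter genes, with 2523 lower. That centring turned 2 uncalled genes of chromosome 11 into higher calls, Axin2 (0.41, adjusted p = 0.0173) and Stat3 (0.39, adjusted p = 0.0107). Requiring at least 2-fold left 339 higher and 624 lower genes. Leaving out 1 array at a time gave 4726 to 7859 calls, 1882 to 3726 of them higher and 2758 to 4133 lower. The replicate block gave 6602 calls, 2885 higher and 3717 lower. The deviations of same-numbered null and null Eα arrays correlated at 0.095, 0.094 and 0.258, the last for the replicates numbered 3. Those of differently numbered arrays ran from -0.196 to 0.098, the highest for null replicate 2 and null Eα replicate 1. The labels give no pairing, so the numbers were not taken to pair the arrays. Whether same-numbered arrays share an effect was not tested. The cause of these changes was not tested. Levels under the lower quartile of an array give only a bound on a fold.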
